A study of Homo sapiens with 27 samples.

Results

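The BCL2 family sets the threshold at which a cell commits to mitochondrial apoptosis, and 10 of its genes were followed here out of the 27115 genes measured in each library. They were chosen by name as the best-known members of the family's 3 classes: the survival genes BCL2, MCL1 and BCL2L1 (BCL-XL), the effectors BAX and BAK1, and the BH3-only genes PMAIP1 (NOXA), BBC3 (PUMA), BCL2L11 (BIM), BID and BAD. In the textbook account, survival proteins hold effector and BH3-only proteins in check, effector proteins open the outer mitochondrial membrane, and BH3-only proteins relay stress signals by binding survival or effector proteins. Diffuse large B-cell lymphomas (DLBCL) often rely on BCL2, MCL1 or BCL2L1 to stay alive, and PMAIP1, BBC3 and BCL2L11 are known to be switched on at the RNA level by stress.

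The study asked which transcripts respond when SIRT3, a mitochondrial deacetylase that DLBCL cells need, is depleted. RNA came from 3 established DLBCL lines, Karpas422 (oxidative phosphorylation-high), OCI-Ly1 (germinal centre B-cell-like) and HBL1 (activated B-cell-like), each carrying a scramble shRNA (shCTRL) or 1 of 2 lentiviral shRNAs to SIRT3 (shSIRT3-1, shSIRT3-2) and collected on day 8. Every library therefore came from virus-infected and drug-selected cells, and each subtype was represented by a single line. There were 3 libraries in each of the 9 groups, 27 in all, and the labels do not say whether these were separate cultures, so p-values measure only the spread between these libraries.

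The libraries held between 28694398 and 53405456 reads on genes (median 45669254), and values were in CPM, reads scaled to the authors' library total and not divided by gene length. SIRT3 itself was lower in 9 of 9 libraries with each shRNA than in every control library of the same line, by -2.45 (log2, SE 0.175) with shSIRT3-1 and -1.37 (SE 0.175) with shSIRT3-2. The B cell markers CD79A (136 to 668 CPM) and PAX5 (136 to 608 CPM) were present in all 27 libraries. Summed activated B cell markers were 622 to 1938 CPM in HBL1 against 19.1 to 103 CPM elsewhere. The 5 germinal-centre markers summed to 63.9 to 182 CPM in HBL1, 361 to 534 CPM in OCI-Ly1 and 624 to 1343 CPM in Karpas422. Of these, MME was at most 0.336 CPM in HBL1 and 86.2 to 268 CPM elsewhere. SERPINA9 and LMO2 were lower in OCI-Ly1 (at most 0.227 and 0.0398 CPM) than in Karpas422. In HBL1 SERPINA9 was at 0.169 to 11.8 CPM and LMO2 at 0.175 to 0.933 CPM, so LMO2 was above every OCI-Ly1 library there. The 3 T cell markers summed to at most 1.97 CPM, the 3 myeloid markers to at most 1.09 CPM and the 4 epithelial or kidney markers to at most 7.61 CPM, this last in HBL1. One library stood apart: replicate 2 of OCI-Ly1 shCTRL held 326 CPM of ATF4 and 29.9 CPM of DDIT3, stress-response transcription factors that were at 129 to 152 CPM and 4.38 to 5.87 CPM in the other 2 controls of that line. Values in OCI-Ly1 that rest on it are marked beside the results. In that line replicate 2 also had the most ATF4 and DDIT3 with shSIRT3-1 (150 and 10.3 CPM) and shSIRT3-2 (147 and 5.78 CPM), by smaller margins. PMAIP1 was likewise highest in replicate 2 of each OCI-Ly1 group. Leaving out the control alone keeps those knockdown libraries, so values without it cannot separate that library from its replicate number.

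In the controls, the survival gene with the highest level was MCL1 in Karpas422 and HBL1 and BCL2 in OCI-Ly1. To compare genes with each other, CPM was divided by the length in kilobases (kb) of the gene's canonical transcript, and levels are the mean ± SD of 3 shCTRL libraries. Karpas422 had the most reads per kb from MCL1 (74.5 ± 8.76) and BAX (71.9 ± 4.82), OCI-Ly1 from BCL2 (91.4 ± 27.1) and BAX (75.5 ± 16.6), and HBL1 from PMAIP1 (167 ± 8.80), followed by MCL1 (61.8 ± 1.23). The lowest member was BBC3 in Karpas422 (1.78 ± 0.289) and BAK1 in OCI-Ly1 (5.20 ± 0.642) and HBL1 (4.16 ± 0.545), although the ranges of mean ± SD of BBC3 (5.39 ± 3.19 and 5.59 ± 0.974) and BAK1 overlapped in both. Without OCI-Ly1 shCTRL replicate 2, BBC3 was at 3.59 ± 1.01 there and was the lowest.

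The full order of these per-kb levels in Karpas422 was MCL1, BAX, PMAIP1 (38.8 ± 8.83), BCL2 (19.9 ± 2.38), BID (12.4 ± 0.826), BAD (12.4 ± 1.52), BCL2L11 (12.1 ± 1.99), BCL2L1 (9.23 ± 0.381), BAK1 (4.37 ± 0.309) and BBC3, in which MCL1 and BAX, and the trio BID, BAD and BCL2L11, had overlapping ranges of mean ± SD. In OCI-Ly1 the order was BCL2, BAX, PMAIP1 (58.9 ± 23.7), BCL2L11 (44.1 ± 17.1), MCL1 (43.6 ± 4.76), BAD (16.9 ± 2.16), BCL2L1 (10.1 ± 0.869), BID (7.39 ± 2.26), BBC3 and BAK1, and each neighbour from BCL2 down to MCL1, and from BCL2L1 down to BAK1, had overlapping ranges of mean ± SD. Without shCTRL replicate 2 MCL1 (45.4) stood above BCL2L11 (35.7) and BAK1 (5.42) above BBC3 (3.59). The order in HBL1 was PMAIP1, MCL1, BAX (42.2 ± 7.21), BCL2 (41.3 ± 1.94), BCL2L1 (26.5 ± 3.85), BID (8.29 ± 1.35), BCL2L11 (7.48 ± 0.510), BAD (7.10 ± 0.353), BBC3 and BAK1. There, BAX and BCL2 overlapped, as did BID with BCL2L11, BCL2L11 with BAD, and BBC3 with BAK1. These orders depend on the length used, most for BAX, whose annotated exons together are longer than its canonical transcript. Divided by the length of all annotated exons, a choice added after the values were seen, BAX was at 22.1, 23.2 and 13.0 per kb in Karpas422, OCI-Ly1 and HBL1 and ranked 3, 5 and 5, and PMAIP1 was first in OCI-Ly1 (51.2 ± 20.6, against 49.9 ± 14.8 for BCL2). On that scale too MCL1 was the highest survival gene in Karpas422 and HBL1, and BCL2 in OCI-Ly1. BBC3 was then the lowest member in Karpas422, OCI-Ly1 and HBL1 (1.03, 3.12 and 3.24 per kb), in place of BAK1 in the last 2.

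**Figure D1:**
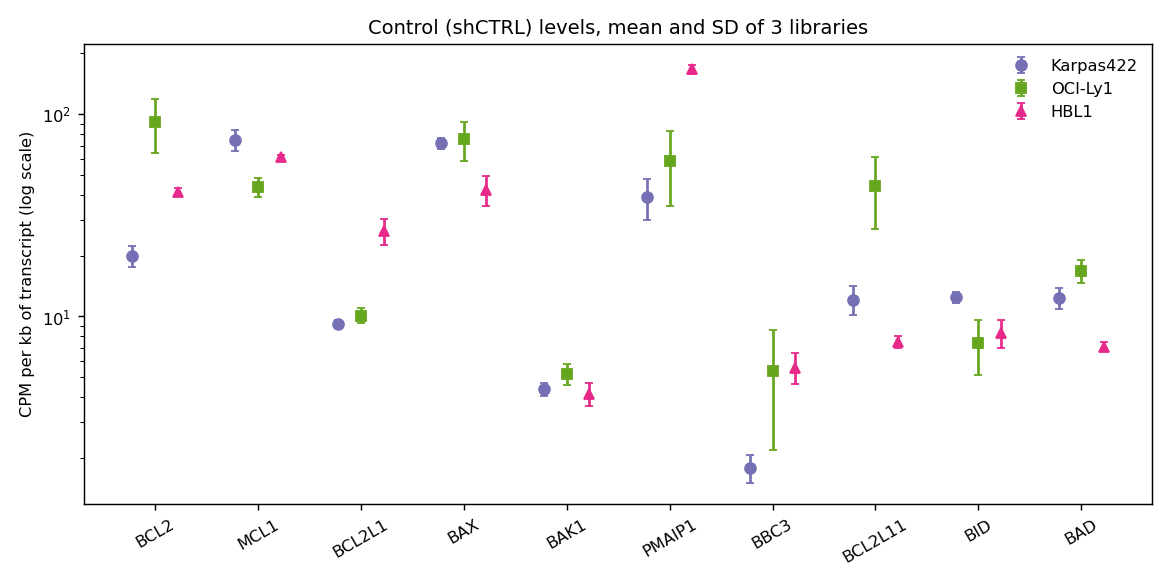
Control levels of the 10 members in the 3 lines, as mean CPM per kb of transcript with SD over 3 shCTRL libraries on a log axis. BCL2 runs from 19.9 in Karpas422 to 91.4 in OCI-Ly1, PMAIP1 peaks at 167 in HBL1, and BAK1 lies between 4.16 and 5.20 in all 3 lines.

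Line by line, the same control libraries were compared with limma, a moderated linear model on log2(CPM + 0.1). A call needed more than a 1.5-fold difference and an adjusted p under 0.05 (Benjamini-Hochberg, over all genes tested). HBL1 against Karpas422 called 8 of the 10 members, where 54.6% of all 12607 genes tested were called. HBL1 against OCI-Ly1 called 6 members beside 54.6% of genes, and OCI-Ly1 against Karpas422 called 5 beside 50.8%, so that the members' share was near the background in the comparisons with OCI-Ly1. For HBL1 against Karpas422 the 8 became 6 without a filter on low values, by quantile normalization, by median-ratio scaling and without replicate 3.

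Among the survival genes, BCL2 was higher in OCI-Ly1 than in Karpas422 by 2.16 (log2 fold change, SE 0.20, adjusted p = 4.85e-06) and higher in HBL1 than in Karpas422 by 1.06 (SE 0.20, adjusted p = 0.000815). BCL2L1 was higher in HBL1 than in Karpas422 by 1.51 (SE 0.12, adjusted p = 1.24e-06) and than in OCI-Ly1 by 1.38 (SE 0.12). MCL1 was lower in OCI-Ly1 than in Karpas422 by -0.77 (SE 0.13, adjusted p = 0.000341). The order of the lines therefore differed for each survival gene.

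BH3-only genes split as well. PMAIP1 was higher in HBL1 than in Karpas422 by 2.12 (SE 0.26, adjusted p = 3.47e-05) and than in OCI-Ly1 by 1.58 (SE 0.26), and BCL2L11 was lower in HBL1 than in OCI-Ly1 by -2.48 (SE 0.25, adjusted p = 7.3e-06). BBC3 was higher in HBL1 and in OCI-Ly1 than in Karpas422, by 1.62 and 1.42 (SE 0.34 each). Without OCI-Ly1 shCTRL replicate 2 the latter was 0.97 (adjusted p = 0.00547), and BBC3 was then also higher in HBL1 than in OCI-Ly1, by 0.65 (adjusted p = 0.0354). BAX and BAD, the effector and a BH3-only gene, were lower in HBL1 than in both other lines, by -0.78 and -0.83 for BAX and by -0.79 and -1.23 for BAD. BAK1 was called in none of these 3 comparisons.

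After SIRT3 knockdown, the fit over the 3 lines (13076 genes tested, with a term for the line and a term for the shRNA) gave lower PMAIP1 and BBC3 with both shRNAs and, with shSIRT3-2, lower BCL2. With shSIRT3-1, 2 of the 10 members were called, both lower, where 13% of all genes were called and 9.09% were called lower. With shSIRT3-2, 3 members were called, all lower, where 13.5% of genes were called and 10.2% were called lower. The members called in the same direction with both shRNAs, PMAIP1 and BBC3, were 2 of 10, where 5.09% of all genes were. The 2 shRNA comparisons share their control libraries, and the median log2 fold change over the 10 members was -0.17 and -0.03, against -0.05 and -0.03 over all genes tested. Of the calls over all genes, 69.9% and 75.6% were lower, and 54.6% and 57.4% were after quantile normalization, under which the members called were 2 and 3 again, all lower. In bulk RNA, fewer cells that express a gene and less of its RNA per cell cannot be told apart.

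**Figure D2:**
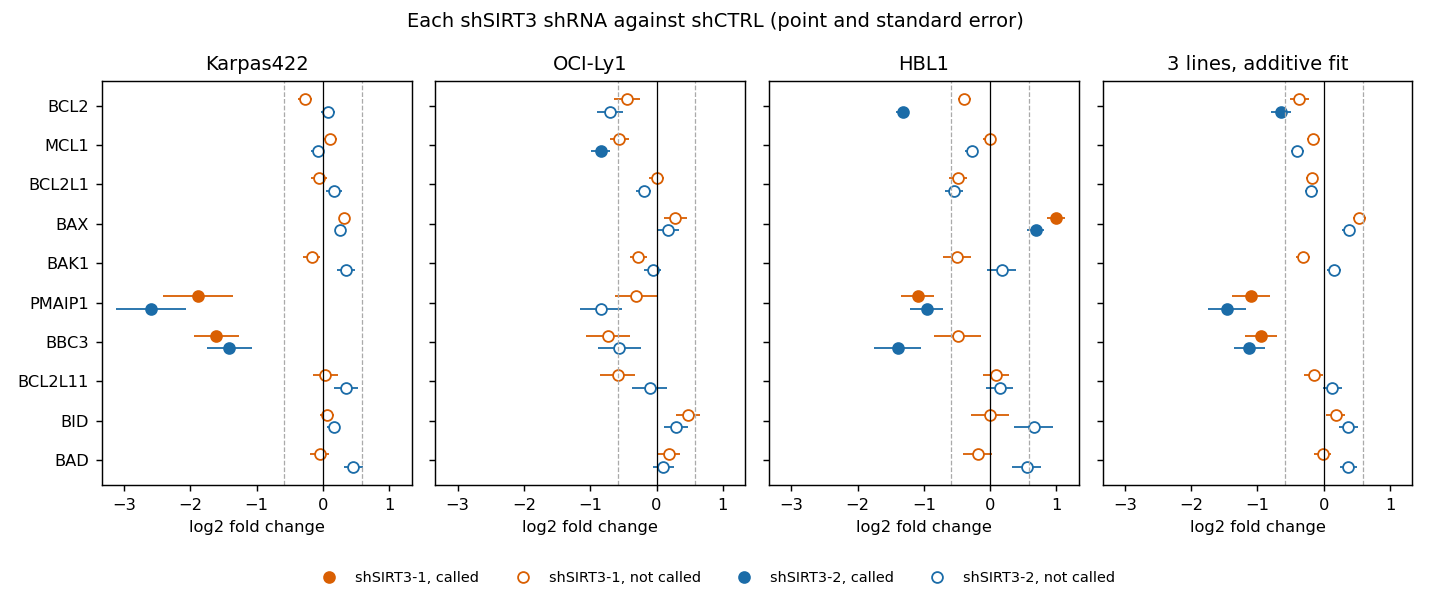
Log2 fold change of each member against shCTRL, with its standard error, in each line and in the additive fit over 3 lines. Filled points passed the call rule, open points did not, and dashed lines mark the 1.5-fold bound. PMAIP1 and BBC3 lie left of 0 in all panels, while BAX lies right of 0 in all panels.

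PMAIP1 encodes NOXA, a BH3-only protein that binds chiefly MCL1 (chr18:57567228-57571537, plus strand, hg19). In the Karpas422 controls it was at 76.5, 55.7 and 88.9 CPM, with shSIRT3-1 at 15.8, 17.6 and 26.9 CPM and with shSIRT3-2 at 5.84, 8.48 and 33.8 CPM, so that no knockdown library reached the lowest control. In HBL1 the controls were at 321, 330 and 298 CPM, shSIRT3-1 at 116, 120 and 234 CPM and shSIRT3-2 at 154, 147 and 190 CPM, again without overlap with the controls. In OCI-Ly1 the groups overlapped, with controls at 71.5, 160 and 104 CPM, shSIRT3-1 at 78.9, 105 and 75.0 CPM and shSIRT3-2 at 55.9, 87.9 and 42.2 CPM.

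Over the 3 lines PMAIP1 was lower by -1.10 (log2, SE 0.29, adjusted p = 0.00431) with shSIRT3-1 and by -1.46 (SE 0.29, adjusted p = 0.000351) with shSIRT3-2, below the control mean of its line in 9 of 9 libraries with each shRNA. The control mean here and below is the mean of log2(CPM + 0.1), and without OCI-Ly1 shCTRL replicate 2 the count for PMAIP1 was 8 of 9 with each shRNA. The largest falls were in Karpas422, to 27.2% and 16.6% of control (log2 -1.88, SE 0.53, adjusted p = 0.022, and -2.59, SE 0.53, adjusted p = 0.0059). In HBL1 it fell to 46.9% and 51.5% of control (log2 -1.09 and -0.96, SE 0.25 each, adjusted p = 0.00856 and 0.017), and in OCI-Ly1 limma called neither value (-0.31 and -0.84, SE 0.31), while DESeq2 called the one with shSIRT3-2 (adjusted p = 0.0393). With the replicate number as a block, a pairing that the labels do not state, limma called PMAIP1 there with shSIRT3-2 too (adjusted p = 0.0185). The test of a difference between lines gave an adjusted p of 0.0714, and of 0.0442 without OCI-Ly1 shCTRL replicate 2. That adjusted p was 0.00398 without replicate 3 of every group and 0.0471 with the replicate number as a block. With replicate 1 or 2 left out of a single line, the adjusted p of PMAIP1 was between 0.0726 and 0.118 in Karpas422 and between 0.118 and 0.171 in HBL1. Without replicate 2 of every group, the fall of PMAIP1 with shSIRT3-1 over 3 lines was -1.02 with an adjusted p of 0.0633, and without the single library OCI-Ly1 shCTRL replicate 2 the value of PMAIP1 in OCI-Ly1 was -0.01 with shSIRT3-1 and -0.54 with shSIRT3-2.

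BBC3, which encodes PUMA, a BH3-only protein able to bind all the survival proteins, was a low transcript (chr19:47724079-47736023, minus strand, hg19). Its Karpas422 controls were at 3.38, 3.78 and 2.72 CPM, and it stood at 1.29, 1.43 and 0.530 CPM with shSIRT3-1 and 1.51, 1.28 and 0.813 CPM with shSIRT3-2, the fewest being 50 reads in 1 library. HBL1 controls held 10.3, 12.1 and 8.53 CPM, with shSIRT3-1 at 4.96, 6.75 and 11.3 CPM and shSIRT3-2 at 3.33, 2.74 and 6.06 CPM. OCI-Ly1 controls held 5.31, 16.6 and 7.94 CPM, with shSIRT3-1 at 4.82, 5.56 and 5.59 CPM and shSIRT3-2 at 5.47, 5.67 and 6.94 CPM. Karpas422 with either shRNA and HBL1 with shSIRT3-2 were clear of their controls, whereas 1 shSIRT3-1 library of HBL1 lay inside the control range.

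The additive fit put BBC3 lower by -0.94 (log2, SE 0.24, adjusted p = 0.00308) with shSIRT3-1 and by -1.12 (SE 0.24, adjusted p = 0.000717) with shSIRT3-2, below the control mean in 8 and 9 of 9 libraries (8 and 8 without OCI-Ly1 shCTRL replicate 2). Within lines, BBC3 was called in Karpas422 with each shRNA (-1.61, adjusted p = 0.00664, and -1.41, adjusted p = 0.0123, SE 0.34) and in HBL1 with shSIRT3-2 (-1.40, SE 0.35, adjusted p = 0.015), while with shSIRT3-1 it was at -0.49 there (SE 0.35, adjusted p = 0.29). Its value in OCI-Ly1 was -0.73 and -0.56 (SE 0.33) with every control, and -0.29 and -0.11 without shCTRL replicate 2. The test of a difference between lines gave an adjusted p of 0.141 for BBC3, and of 0.0357 without that library. With replicate 1 or 2 left out of a single line, the adjusted p was between 0.0536 and 0.0976 in Karpas422 and at 0.144 and 0.207 in HBL1 with shSIRT3-2, and with replicate 3 left out BBC3 was called in HBL1 with shSIRT3-1 as well (-0.94, adjusted p = 0.00116). Without replicate 2 of every group, BBC3 over 3 lines was -0.79 (adjusted p = 0.0782) and -0.83 (adjusted p = 0.0752) and was no longer called, and without Karpas422 it was -0.61 (adjusted p = 0.108) with shSIRT3-1.

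**Figure D3:**
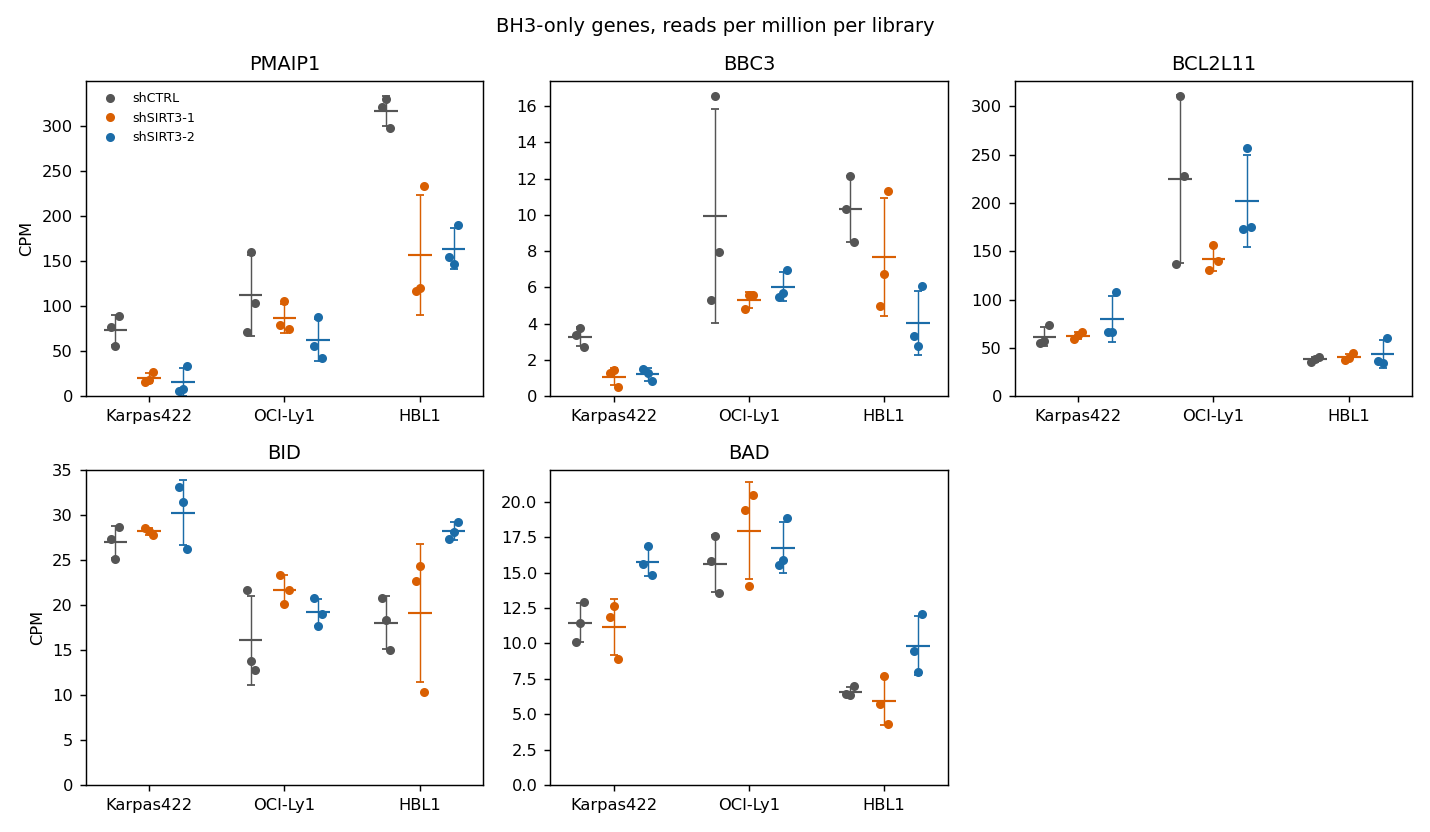
CPM of the 5 BH3-only genes in each of 27 libraries (points), with the mean (horizontal line) and SD (bar) of each group of 3. For PMAIP1 the shSIRT3 libraries lie below the controls in Karpas422 and HBL1, and the highest BBC3 value of all, 16.6 CPM, is OCI-Ly1 shCTRL replicate 2.

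RNA of ATF4 and DDIT3 (CHOP), transcription factors known to act on these genes, was lower as well on day 8. By qPCR at earlier days the study found ATF4 mRNA stable, and it reported that ATF4 protein fell through translation. ATF4 was lower by -0.91 and -1.03 (log2, SE 0.15 each, adjusted p = 5.34e-05 and 1.42e-05) and DDIT3 by -1.27 and -1.86 (SE 0.295 each, adjusted p = 0.00143 and 3.21e-05) with shSIRT3-1 and shSIRT3-2. Within OCI-Ly1 neither factor was called, at -0.42 and -0.50 for ATF4, and without shCTRL replicate 2 ATF4 was at -0.02 and -0.10 there and DDIT3 at 0.49 and -0.02. Over 3 lines, DDIT3 with shSIRT3-1 was no longer called without replicate 2 of every group (-0.83, adjusted p = 0.0556) or without HBL1 (-0.90, adjusted p = 0.0872). Over the 27 libraries, after removal of each line's mean, Pearson's r was 0.75 between ATF4 and PMAIP1, 0.77 between ATF4 and BBC3, and 0.55 between PMAIP1 and BBC3. These points share their line and shRNA, so the r values describe how the libraries lie and do not separate the genes from the shRNA. Within OCI-Ly1, r between ATF4 and BBC3 was 0.80 over 9 libraries and -0.57 over 8 without shCTRL replicate 2, while for ATF4 and PMAIP1 it was 0.77 and 0.59, and for BBC3 and PMAIP1 0.60 and -0.02.

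**Figure D4:**
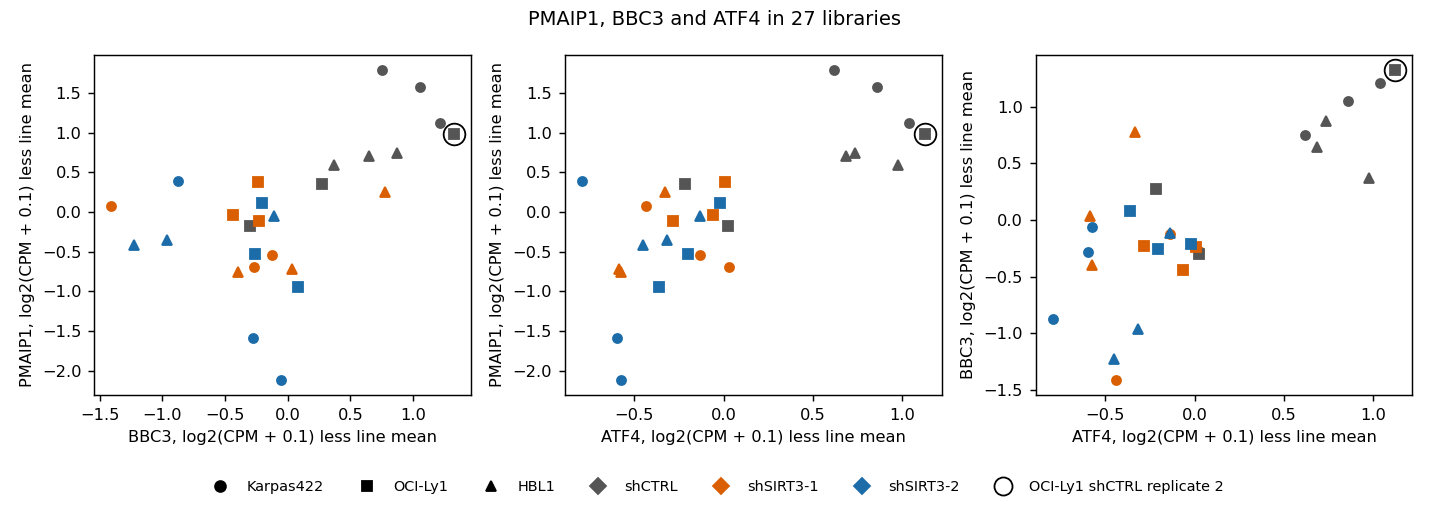
PMAIP1, BBC3 and ATF4 in 27 libraries, as log2(CPM + 0.1) less the mean of the line; shape marks the line and colour the shRNA, and the circled point is OCI-Ly1 shCTRL replicate 2. Controls of Karpas422 and HBL1 lie at the upper right with the circled library, while the other 2 OCI-Ly1 controls lie among the knockdown libraries.

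By a rule that ranks all other genes tested on likeness to a member over these 27 line-centred libraries, BBC3 was most like ZBED3-AS1 (r = 0.90), GPT2 (r = 0.89), a mitochondrial alanine transaminase, and PNPLA4 (r = 0.89). PMAIP1 was most like GTF2H3 (r = 0.85), a subunit of the general factor TFIIH, LINC00662 (r = 0.84) and HINT3 (r = 0.83). Neither member was among the nearest 3 of the other.

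RefSeq promoter windows of GRCh38.p14, from 250 bases before to 50 after a start site, were matched for 9 of the 10 members. These gave 15 windows, since some genes have several start sites, and MCL1, the member without a match, was not searched. PMAIP1 and BBC3 are shown because both were lower with both shRNAs over 3 lines. The letters TGATGNAA, the core of the composite site that ATF4 binds, and TGACGTCA, the cyclic AMP response element, were searched on both strands, as were all motifs here, and were in none of the 15 windows, while 3.62% and 1.85% of all 35116 windows hold them. That says only that these letters are not in this window. The PMAIP1 window holds GGGCGG, the GC box, 4 times, as 45% of all windows hold it at least once and 9.06% at least 4 times, and 3 of these copies are evenly spaced in a stretch that begins 106 bases before the start (chr18:59899890-59899919, plus strand, GC boxes in capitals). The BBC3 window holds CACGTG, the E-box, once, as 7.26% of all windows do at least once, and the stretch around it is printed with the E-box in capitals (chr19:47232884-47232909, minus strand). Matches of different motifs did not overlap in these windows.
PMAIP1: GGGCGGggacagGGGCGGggacagGGGCGG
BBC3: ggggagatttCACGTGagatatagat

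BCL2L11, BID and BAD, the other BH3-only genes, did not follow. BCL2L11 (BIM, a strong activator of BAX and BAK1, chr2:111876955-111926021, plus strand, hg19) was at -0.15 (95% interval -0.45 to 0.15) with shSIRT3-1 and 0.13 (-0.17 to 0.43) with shSIRT3-2 over 3 lines, called in no line. Without OCI-Ly1 shCTRL replicate 2 the values over 3 lines were -0.05 with shSIRT3-1 and 0.23 with shSIRT3-2. BCL2L11 levels ranged from 34.2 CPM in HBL1 to 311 CPM in OCI-Ly1 shCTRL replicate 2, and the highest shSIRT3-2 library of Karpas422, at 108 CPM, exceeded all of its controls. The BCL2L11 window was the only one of the 15 to hold GTAAACA, the forkhead core bound by FOXO factors, which 3.42% of all windows hold. The stretch around it (chr2:111120681-111120707, plus strand, GRCh38.p14) is printed with the forkhead core in capitals because FOXO3 is a known activator of this gene.
BCL2L11: agttactccgGTAAACAcgccagggac

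BID, which caspase-8 cleaves to link death receptors to mitochondria (chr22:18216904-18257536, minus strand, hg19), was at 0.18 (SE 0.14) with shSIRT3-1 and 0.37 (SE 0.14, adjusted p = 0.0387) with shSIRT3-2, the latter past the p threshold but under the fold bound. In HBL1 the shSIRT3-2 libraries held 27.3, 28.2 and 29.3 CPM of BID, above all 3 controls (15.0 to 20.8 CPM), and the test in that line gave 0.66 (SE 0.29, adjusted p = 0.112) by limma, while edgeR's likelihood ratio test and DESeq2 called it (adjusted p = 0.0355 and 0.0316). BAD, which binds BCL2 and BCL2L1 when dephosphorylated (chr11:64037302-64052176, minus strand, hg19), was at -0.02 (SE 0.12) with shSIRT3-1 and 0.37 (SE 0.12, adjusted p = 0.0202) with shSIRT3-2. In HBL1 BAD was at 0.55 with shSIRT3-2 (adjusted p = 0.0851) by limma and was called by edgeR (adjusted p = 0.0477) and DESeq2 (adjusted p = 0.0177). There limma called BAD after quantile normalization (0.75, adjusted p = 0.0249) and median-ratio scaling (0.62, adjusted p = 0.0482). In Karpas422 limma called BAD with shSIRT3-2 only without replicate 3 (0.59, adjusted p = 0.00342). The shSIRT3-2 libraries of Karpas422 and HBL1 were above every control for BAD, with 5.93 ± 1.72 CPM for shSIRT3-1 and 9.83 ± 2.07 CPM for shSIRT3-2 in HBL1, against 6.59 ± 0.328 CPM in its controls. BAD shares 404 exon bases with GPR137 on the opposite strand, and BCL2L11 shares 727 with MIR4435-2HG, and the counting is not stated to use strand, so reads of these partners cannot be told apart.

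BCL2, the survival gene for which the family is named (chr18:60790579-60987361, minus strand, hg19), was lowest relative to its controls in HBL1 with shSIRT3-2. Controls there were at 269, 292 and 292 CPM, shSIRT3-1 libraries at 238, 196 and 220 CPM, and shSIRT3-2 libraries at 112, 109 and 122 CPM, so that all 3 groups were apart. OCI-Ly1 controls spread from 443 to 816 CPM, with 417 to 471 CPM under shSIRT3-1 and 353 to 419 CPM under shSIRT3-2, the latter below every control. In Karpas422 shSIRT3-1 was at 111 to 115 CPM, just below the controls at 120 to 152 CPM, while shSIRT3-2 overlapped them at 129 to 153 CPM.

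Over 3 lines BCL2 was at -0.37 (log2, SE 0.15, adjusted p = 0.0522) with shSIRT3-1 and fell by 0.65 on the log2 scale (SE 0.15, adjusted p = 0.00138) with shSIRT3-2. With shSIRT3-1 the lines lay close together, at -0.27 (Karpas422), -0.44 (OCI-Ly1) and -0.39 (HBL1, adjusted p = 0.0154, under the fold bound), none called. The fall with shSIRT3-2 in HBL1 left 40.1% of control (log2 -1.32, SE 0.10, adjusted p = 8.52e-05), whereas Karpas422 was at 0.08 (95% interval -0.16 to 0.32). BCL2 responses differed between lines (interaction F test, adjusted p = 0.000267), a call that was absent without Karpas422 (adjusted p = 0.0642) and without HBL1 (adjusted p = 0.0688). Leaving out HBL1, BCL2 with shSIRT3-2 was -0.31 (adjusted p = 0.118), and leaving out replicate 2 of every group it was -0.595 (adjusted p = 0.0555), in both cases not called. In OCI-Ly1 BCL2 with shSIRT3-2 was at -0.70 (SE 0.20, adjusted p = 0.0531) by limma, and edgeR and DESeq2 called it (adjusted p = 0.0483 and 0.00542).

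MCL1, a short-lived survival protein and the main partner of NOXA (chr1:150533371-150552214, minus strand, hg19), was at -0.16 (SE 0.10, adjusted p = 0.204) with shSIRT3-1 and -0.40 (SE 0.10, adjusted p = 0.00187) with shSIRT3-2 over 3 lines, the latter under the fold bound and below the control mean in 9 of 9 libraries. Its one call by limma was in OCI-Ly1. The controls there were at 165, 158 and 193 CPM, shSIRT3-1 at 130, 95.9 and 126 CPM and shSIRT3-2 at 107, 83.9 and 97.7 CPM, with no overlap of either shRNA with the controls. In that line MCL1 fell with shSIRT3-2 to 55.8% of control (log2 -0.84, SE 0.14, adjusted p = 0.0148), the only member that limma called in that comparison, where it called 6.41% of 11205 genes, and was at -0.56 (SE 0.14, adjusted p = 0.0451) with shSIRT3-1, under the fold bound. That call was absent without replicate 1 (-0.95, adjusted p = 0.056) and without replicate 3 (-0.77, adjusted p = 0.24), where OCI-Ly1 has 2 libraries a group, and also without a filter on low values (adjusted p = 0.0774). In Karpas422 and HBL1, MCL1 lay between -0.28 and 0.10 with either shRNA and was not called, although all 3 shSIRT3-2 libraries of HBL1 (at most 209 CPM) were below its controls (239 CPM or more), and the test of its response between lines gave an adjusted p of 0.00617. That difference between lines was not called without replicate 1 (adjusted p = 0.158), without replicate 3 (0.0726) or without OCI-Ly1 (0.468). MCL1 exons overlap 43 bases of ADAMTSL4 on the opposite strand and 328 of ADAMTSL4-AS1 on the same strand.

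BCL2L1, which gives the long survival form BCL-XL and a short pro-death form that these gene-level values do not separate (chr20:30252255-30311792, minus strand, hg19), lay below its controls in HBL1. Controls held 78.0, 68.4 and 58.2 CPM, shSIRT3-1 libraries 47.9, 52.3 and 45.6 CPM and shSIRT3-2 libraries 49.1, 51.6 and 39.7 CPM, all below the lowest control. The values, -0.48 (SE 0.14, adjusted p = 0.0232) and -0.54 (SE 0.14, adjusted p = 0.0159), passed the p threshold and stayed under the fold bound. In the other lines BCL2L1 lay between -0.20 and 0.17, and the test between lines gave an adjusted p of 0.0202, which rose to 0.291 without replicate 1, 0.0858 without replicate 2, 0.115 without Karpas422 and 0.174 without HBL1. ABALON, an antisense transcript, shares 1735 exon bases with it.

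**Figure D5:**
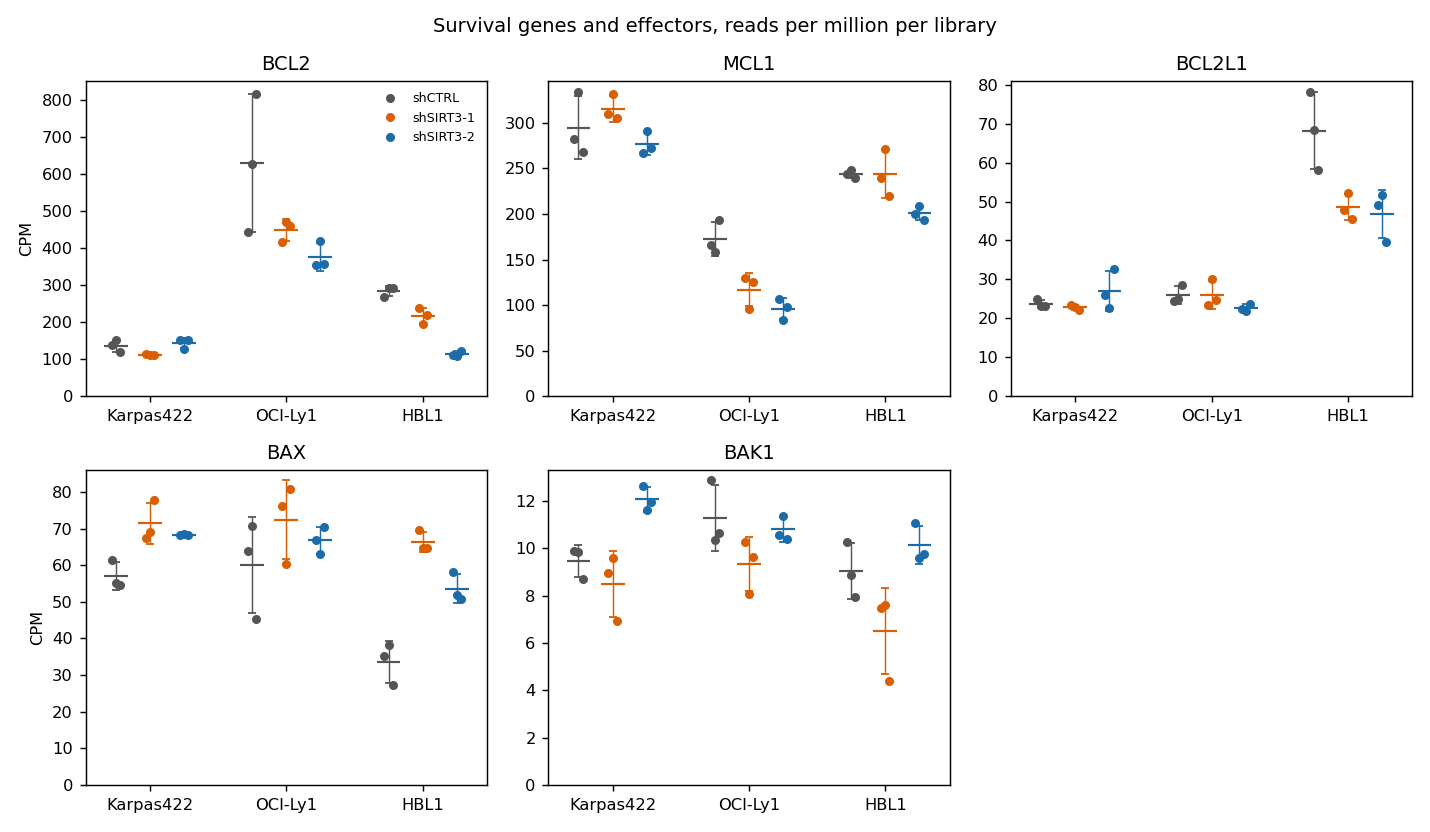
CPM of the 3 survival genes and the 2 effectors in each of 27 libraries (points), with the mean (horizontal line) and SD (bar) of each group of 3. BCL2 in HBL1 steps from 284 CPM in controls to 114 CPM with shSIRT3-2, and BAX in HBL1 rises from 33.6 CPM to 66.4 and 53.6 CPM.

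BAX, the effector that moves to mitochondria when activated (chr19:49458072-49465055, plus strand, hg19), was the member that limma, with its main settings, called higher than controls, in HBL1. HBL1 controls were at 35.3, 38.2 and 27.2 CPM, shSIRT3-1 libraries at 69.6, 64.8 and 64.7 CPM and shSIRT3-2 libraries at 58.2, 51.9 and 50.7 CPM, all above the highest control. In Karpas422 the controls at 54.7 to 61.6 CPM also lay below all 6 knockdown libraries, at 67.4 to 77.9 CPM and 68.3 to 68.5 CPM. OCI-Ly1 overlapped, with 45.4 to 70.7 CPM in controls, 60.3 to 81.0 CPM with shSIRT3-1 and 63.0 to 70.4 CPM with shSIRT3-2.

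BAX rose in HBL1 to 199% of control with shSIRT3-1 (log2 1.00, SE 0.13, adjusted p = 0.000762) and to 161% with shSIRT3-2 (0.69, SE 0.13, adjusted p = 0.00438). Over 3 lines it was 0.53 (SE 0.10, adjusted p = 0.00018) and 0.37 (SE 0.10, adjusted p = 0.00475), past the p threshold in both and under the fold bound in both, and above the control mean of its line in 9 of 9 libraries with each shRNA. Without OCI-Ly1 shCTRL replicate 2 the value with shSIRT3-1 was 0.59 (adjusted p = 5.09e-05), which is called. The value with shSIRT3-1 was also called without replicate 2 of every group, without Karpas422 and without OCI-Ly1 (0.64 to 0.66). Without HBL1, BAX was called with neither shRNA. The lowest values under any setting of the fit over 3 lines were 0.30 with shSIRT3-1 and 0.22 with shSIRT3-2. In HBL1 alone, the call with shSIRT3-2 was absent without replicate 1 (adjusted p = 0.109), without replicate 2 (adjusted p = 0.0619) and without replicate 3 (0.58, under the fold bound). The test of the BAX response between lines gave an adjusted p of 0.0281, and of 0.401 without replicate 1, 0.124 without replicate 2, 0.0557 without a filter on low values, 0.0596 without Karpas422 and 0.945 without HBL1.

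The BAX promoter is shown because it is the only matched member window with more than 1 E-box. It holds CACGTG, a palindrome bound by MYC-type factors among others, 4 times, and 0.0142% of all 35116 windows hold it at least 4 times. The E-box is in capitals, on the plus strand of chromosome 19 (GRCh38.p14), with the stretches numbered from the one farthest from the start, at chr19:48954727-48954752, chr19:48954772-48954797, chr19:48954820-48954845 and chr19:48954851-48954876. MYC RNA was at -0.25 and -0.40 (adjusted p = 0.301 and 0.096) over 3 lines. A match is a description of letters, not of binding.
BAX E-box 1: attggacagtCACGTGacgggaccaa
BAX E-box 2: caggtgcggtCACGTGacccggcggc
BAX E-box 3: gcggggcggcCACGTGaaggacgcac
BAX E-box 4: gcggggctctCACGTGacccgggcgc

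BAK1, the effector that resides on mitochondria (chr6:33540324-33548070, minus strand, hg19), was called by limma against controls in no line. It was at -0.31 (SE 0.10, adjusted p = 0.018) with shSIRT3-1 and at 0.15 (SE 0.10, adjusted p = 0.25) with shSIRT3-2, and shSIRT3-2 exceeded shSIRT3-1 by 0.47 (SE 0.10, adjusted p = 0.00121) over 3 lines, under the fold bound. HBL1 controls held 10.3, 8.85 and 7.92 CPM, shSIRT3-1 libraries 7.47, 7.61 and 4.40 CPM and shSIRT3-2 libraries 11.1, 9.59 and 9.76 CPM.

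Compared directly over 3 lines, the shRNAs differed in 0 of 10 members by limma, where 11.3% of genes were called, and 0 were called by edgeR or DESeq2. BAK1 (0.47) and BAD (0.39, SE 0.12, adjusted p = 0.0186) passed the p threshold and missed the fold bound, and with MCL1 they were the 3 members at an unadjusted p under 0.05. Within lines, a comparison added after the values had been seen, 0 members were called in Karpas422 (11.5% of genes) and in OCI-Ly1 (4.68%), and 3 in HBL1 (27.9%). In HBL1, shSIRT3-2 had lower BCL2 than shSIRT3-1 (-0.93, SE 0.10, adjusted p = 0.000645) and higher BAD (0.74, SE 0.22, adjusted p = 0.0288) and BAK1 (0.67, SE 0.21, adjusted p = 0.0342). SIRT3 itself was less reduced with shSIRT3-2 than with shSIRT3-1 by 1.08 (SE 0.17) over 3 lines and by 0.56 (SE 0.15) in HBL1. Left-out replicates ended these HBL1 calls for BCL2 without replicate 1 (-0.85, adjusted p = 0.0612), for BAD without replicate 1 or 3 (adjusted p = 0.198 and 0.0501), and for BAK1 without any of the 3 (0.73, 0.85 and 0.44).

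By line, Karpas422 called 2 members with each shRNA (BBC3 and PMAIP1), where 16% of 11235 genes were called with shSIRT3-1 and 15% with shSIRT3-2. OCI-Ly1 called 0 members with shSIRT3-1 by limma, where 4.5% of genes were called, with 3 members at an unadjusted p under 0.05 (BCL2, MCL1 and BID), 0 called by edgeR, and BBC3 called by DESeq2. HBL1 called 2 with shSIRT3-1 (BAX and PMAIP1) beside 27.7% of 11862 genes, and 4 with shSIRT3-2 (BCL2, BBC3, PMAIP1 and BAX) beside 23.5%. With shSIRT3-2 OCI-Ly1 called 1 member by limma (MCL1) and 3 by DESeq2, and without the library that stood apart limma called 0 and 1 there again. Responses differed between lines for 4 of 10 members (BCL2, MCL1, BCL2L1 and BAX), where the interaction test called 41.8% of all genes, so that the members' share was close to the background.

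Other genes of the pathway were read from lists written for this work. Those named below without a call for both shRNAs were chosen after their values were seen. All values are from the fit over 3 lines. The test of a difference between lines called 5 of 9 other BCL2 family genes, 7 of 16 apoptosome and caspase genes and 8 of 11 death receptor genes. It called 8 of 14 DNA damage response genes, 4 of 12 transcription factors and 1 of 7 stability genes, where 41.8% of all genes were called. Of 9 other BCL2 family genes tested, HRK, a BH3-only gene, was lower with both shRNAs (-1.39 and -1.24, SE 0.27 each, adjusted p = 0.00022 and 0.000747). Of all genes tested, 5.09% were called in the same direction with both. BCL2A1, a survival gene, was lower with shSIRT3-2 (-0.77, SE 0.24, adjusted p = 0.0133). The median over the 9 was -0.29 and -0.18, and BCL2L10, BCL2L14, BCL2L15 and BOK did not reach the expression filter.

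Downstream of mitochondria, 16 genes of the apoptosome, caspases and their inhibitors were tested. None was called with both shRNAs, where 5.09% of all genes were, so a count of none is near the background. With shSIRT3-1 the executioner caspase gene CASP6 was lower (-0.59, SE 0.16) and HTRA2, a mitochondrial protease, was higher (0.70, SE 0.11). With shSIRT3-2 the caspase inhibitor gene BIRC3 was lower (-1.13, SE 0.30). CASP6 and HTRA2 differed between the shRNAs as well, by 0.76 and -0.80 (shSIRT3-2 against shSIRT3-1, adjusted p = 0.000701 and 1.12e-05).

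In the death receptor arm 11 of 12 genes were tested. With shSIRT3-1 the receptor gene FAS was lower (-0.60, SE 0.16, adjusted p = 0.00341) and TNFRSF10A, a receptor for TRAIL, was higher (0.69, SE 0.12, adjusted p = 8.14e-05). With shSIRT3-2 both had like values that passed the p threshold under the fold bound (-0.58, adjusted p = 0.00516, and 0.52, adjusted p = 0.00144), and with shSIRT3-2 CASP10 was lower (-0.73, SE 0.21, adjusted p = 0.00697). None was called with both, where 5.09% of all genes were. Of 7 genes that control MCL1 and BIM protein stability none was called with either, by limma, where 13% and 13.5% of all genes were. Lists this short cannot be told from the background by such counts.

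Among listed genes of the DNA damage response, CDKN1A, the cell cycle inhibitor p21, was lower with both shRNAs, at -1.27 and -1.66 (SE 0.37 each, adjusted p = 0.00886 and 0.00112). With shSIRT3-1, GADD45A, MDM2 and FDXR were lower (-1.02, -0.65 and -0.62) and BTG2 was higher (1.06, SE 0.24), and with shSIRT3-2 none of these 4 was called, FDXR being at -0.46 (adjusted p = 0.0288).

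Of 12 transcription factors known to act on family members, 4 were lower with each shRNA, where 9.09% and 10.2% of all genes tested were, and ATF4 and DDIT3 were lower with both. FOXO3, the activator of BCL2L11 named above, was lower with shSIRT3-1 (-0.71, SE 0.14, adjusted p = 0.00021) and at -0.02 with shSIRT3-2, and E2F1 was lower with shSIRT3-1 (-0.62, SE 0.24, adjusted p = 0.0472). BCL6, a germinal-centre repressor, and HIF1A, the hypoxia factor, were lower with shSIRT3-2 (-0.87 and -0.73, SE 0.11 and 0.08). With shSIRT3-1 BCL6 was at -0.40 (adjusted p = 0.00447), under the fold bound, and HIF1A at 0.20 (adjusted p = 0.0557).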

How the data were processed

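RNA-seq of 27 libraries was analysed. The authors primed first strands at random, sequenced paired ends, aligned reads with STAR to hg19 and counted RefSeq genes (Rsubread). Deposited values carry the name FPKM, but within a library each is a whole multiple of 1 step whatever the gene's length (100% of values within 0.01 read), so the authors' values were used as CPM. They sum to 40.3% to 45.6% of a total that the sources used here do not name, and the planned test for FPKM was kept. One read was worth 0.00831 to 0.0157 CPM.

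Genes at 1 CPM or more in at least 3 fitted libraries were tested as log2(CPM + 0.1) with limma 3.58.1 (R 4.3.3, trended variance). Alternatives used edgeR 4.0.16 and DESeq2 1.42.0 on recovered reads, pseudocounts of 1 and 0.01, other scalings, no filter, no trend and left-out replicates, lines or library. Members, lists and the named-gene rule (members, SIRT3, ATF4, DDIT3, listed genes called with both shRNAs and 3 nearest patterns, to which MYC was added for the E-boxes) were chosen with earlier results of these data known. The models were tested on simulated data. hg19 coordinates are from GENCODE. Files were read with Python 3.11.15. Some listed genes are not reported here.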

Additional observations from a re-analysis of the deposited data

Results flagged for a closer look

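Lines responded unequally to knockdown in 4 of the 10 members by the interaction test, with adjusted p-values of 0.000267 for BCL2, 0.00617 for MCL1, 0.0202 for BCL2L1 and 0.0281 for BAX, where the same test called 41.8% of all genes. Without replicate 1 of every group only BCL2 of these 4 was still called, with adjusted p-values of 0.158 for MCL1, 0.291 for BCL2L1 and 0.401 for BAX. BCL2 with shSIRT3-2 was at 0.08 (log2) for Karpas422, -0.70 for OCI-Ly1 and -1.32 for HBL1. With shSIRT3-1 BCL2 was at -0.27, -0.44 and -0.39 for the lines in that order. MCL1 was at -0.08, -0.84 and -0.28 with shSIRT3-2 and at 0.10, -0.56 and -0.01 with shSIRT3-1. BCL2L1 was at 0.17, -0.20 and -0.54 with shSIRT3-2 and at -0.06, 0.0009 and -0.48 with shSIRT3-1. BAX was at 0.32, 0.29 and 1.00 with shSIRT3-1 and at 0.26, 0.18 and 0.69 with shSIRT3-2. The part that any technical difference between the lines has in these values was not tested.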

How the results depend on the processing

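Of 2290 member values under other settings, 2181 stayed on the same side of the call rule, 68 lost the call, 41 gained it and 0 reversed among called values. Among log2 fold changes of members that were called under neither setting, 67 of 1558 changed sign. Counts of members called that moved by more than 1.5 times were the following, and their causes were not tested unless fewer libraries or more genes were fitted by construction. Without a filter on low values, Karpas422 gave 1 (shSIRT3-1) and 0 (shSIRT3-2) in place of 2, OCI-Ly1 with shSIRT3-2 gave 0 in place of 1, HBL1 with shSIRT3-2 gave 2 in place of 4, and the shRNAs compared in HBL1 gave 1 (BCL2) in place of 3, since BAK1 and BAD had adjusted p-values of 0.097 and 0.085. OCI-Ly1 with shSIRT3-2 gave 2 by quantile normalization and by both edgeR tests and 3 by DESeq2, which also gave 1 with shSIRT3-1 in place of 0. Between the shRNAs over the lines, 1 member (BCL2) was called without Karpas422 and 2 (BAK1 and BAD) without OCI-Ly1, in place of 0. Differences between lines were called in 1 member (MCL1) without Karpas422 or without HBL1, in place of 4.

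With 1 replicate number or library left out, the counts ranged from 1 to 3 for shSIRT3-1 and from 1 to 3 for shSIRT3-2 over the lines, 0 to 2 and 0 to 3 in Karpas422, 0 to 1 in OCI-Ly1 with shSIRT3-2, 1 to 3 in HBL1 with either shRNA, 1 to 6 for the difference between lines, and, between the shRNAs, 0 to 1 in Karpas422 and 0 to 2 in HBL1. In a single line this leaves 2 libraries a group.

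Same-numbered libraries moved together in 26 of 27 pairs (r over 0.1, lowest 0.0144), and 47 of 54 library comparisons correlated best with their own number, a hint from the data and not from the design. With the number as a replicate block, 3 members were called in OCI-Ly1 with shSIRT3-2 (BCL2, MCL1 and PMAIP1), 5 for the difference between lines (PMAIP1 joined) and 4 between the shRNAs in HBL1 (BBC3 joined), and the counts of the other comparisons were unchanged.

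Among the members BBC3 had the fewest reads, with 50 in a Karpas422 library with shSIRT3-1.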
